A study of Mus musculus with 22 samples.

Results

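The genes described are the nuclear-encoded subunits of the mitochondrial oxidative phosphorylation system. They were chosen by name: the protein-coding entries whose mouse symbol begins with Ndufa, Ndufb, Ndufc, Ndufs, Ndufv, Uqcr, Cox4i, Cox5, Cox6, Cox7, Cox8 or Atp5, plus Sdha, Sdhb, Sdhc, Sdhd and Cyc1, and without the Ndufaf assembly factors. The rule gave 87 of the 34585 listed entries, of which 38 belong to complex I by name, 4 to complex II, 9 to complex III, 18 to complex IV and 18 to complex V. Ndufa4 and its relative Ndufa4l2 are counted in complex I by their names, although the Ndufa4 protein is known as a subunit of complex IV. Atp5o is listed under 2 identifiers, and both were kept.

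The libraries came from 3 organs (thymus, cerebrum and cerebellum) of C57BL/6 mice of 2 genotypes. Tol mice are heterozygous for a transgene that the CAG promoter drives from a locus 3′ of Col1a1, and which encodes shuffled fragments of many reporter proteins in 1 reading frame. It was placed there by cassette exchange in an embryonic stem cell line, and WT littermates lack it. The groups held 4 WT and 4 Tol thymi, 4 WT and 4 Tol cerebra, and 4 WT and 2 Tol cerebella. The labels used here give no age, and they do not tie a library number to 1 mouse across organs. The study names 4 Tol and 4 WT mice for these data, so organs of a genotype can come from the same animals. The main tests between organs treat their libraries as independent.

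Oxidative phosphorylation couples the oxidation of NADH and succinate to the making of ATP. Complexes I and II feed electrons into the chain, complex III (with cytochrome c1, the product of Cyc1) passes them on through cytochrome c, and complex IV hands them to oxygen. Complexes I, III and IV pump protons across the inner mitochondrial membrane, and complex V, the ATP synthase, uses the returning protons. Neurons depend heavily on this pathway for their ion gradients, whereas dividing thymocytes also draw on glycolysis. Some core subunits are encoded by mitochondrial DNA and are not members of the set. Several complex IV subunits exist as pairs of isoforms, 1 found widely and the other known from heart, skeletal muscle, testis or lung.

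Library totals ran from 14543698 to 34776973 counts. The Tol transcript had 448 to 1023 counts in the Tol thymi, 2240 to 3520 in the Tol cerebra and 3479 to 4628 in the Tol cerebella, and 0 to 2 in the WT libraries. All 10 thymocyte genes were lower and all 6 neuron genes higher in WT cerebrum than in WT thymus.

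The cerebella were not alike in the markers of their own region, and 1 of them went against its label. On CPM scaled within the organ, the 8 granule and Purkinje cell genes listed summed to 10480, 5002, 12410 and 10640 in WT 1 to 4 and to 12600 and 770.9 in Tol 1 and 2, against 791.9 to 1265 in the 8 cerebra. Gabra6, a receptor subunit of granule cells, measured 12.7 CPM in the library labelled cerebellum Tol 2, against 320.7 to 771.9 in the other cerebella and at most 4.60 in the cerebra. The 6 forebrain genes summed to 45.6 in that library, 99.8 to 185.2 in the other cerebella and 449 to 1054 in the cerebra. Its 6 oligodendrocyte genes summed to 9339 and those of cerebellum WT 2 to 16680, against 4514 to 6821 in the other 4. Of all pairs of libraries of 1 group, the 2 Tol cerebella differed most, with a chi-square per degree of freedom of 208 against at most 91.2 in other pairs. The main counts of members called in contrasts with the library labelled cerebellum Tol 2 or with cerebellum WT 2 are therefore given with and without it. Other values include both libraries unless stated, among them levels, isoform shares, counts by complex and overlaps of groups. Without Tol 2 the Tol cerebellum is 1 library, which is then assumed to vary like the other groups.

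Levels are given in 2 ways. For genotype comparisons, the level is CPM, the counts of a gene relative to the library total, scaled by TMM factors within the organ. For comparing genes or organs, it is CPM scaled over all 22 libraries and divided by the length of the gene's merged exons in kilobases. In bulk tissue, fewer cells that use a gene and less of its RNA per cell cannot be told apart.

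The members together took 0.679 to 0.758% of all counts in WT thymi, 0.727 to 0.772% in WT cerebra and 0.808 to 0.913% in WT cerebella. In Tol mice the shares were 0.714 to 0.909%, 0.681 to 0.744% and 0.854% in both cerebella. The 13 subunits encoded by mitochondrial DNA, by comparison, took 2.23 to 2.96% of counts in WT thymus, 7.60 to 8.62% in WT cerebrum and 5.55 to 8.13% in WT cerebellum.

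Per kilobase and after scaling over all libraries, each complex stood higher in the WT brain regions than in the WT thymus. The summed level of the 38 complex I genes was 1008 ± 66.5 CPM per kilobase (SD, n = 4) in thymus, 1585 ± 99.96 in cerebrum and 1582 ± 99.8 in cerebellum. That of complex IV was 813 ± 37.6, 1502 ± 120.2 and 1303 ± 73.7 in the same order. The 9 complex III genes summed to 438 ± 25.2, 614 ± 17.2 and 627 ± 32.7. Complexes II and V differed less between thymus and cerebrum. The 4 complex II genes summed to 164 ± 9.39, 210.3 ± 6.73 and 232 ± 10.8, and the 18 complex V genes to 959.8 ± 56.4, 1149 ± 55.7 and 1222 ± 51.0. No WT thymus library reached a WT cerebrum or WT cerebellum library in any of these 5 sums. This order depended on the scaling: with total counts alone, the mean log2 level of complexes II and V was lower in WT cerebrum than in WT thymus, by -0.15 and -0.18.

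**Figure D1:**
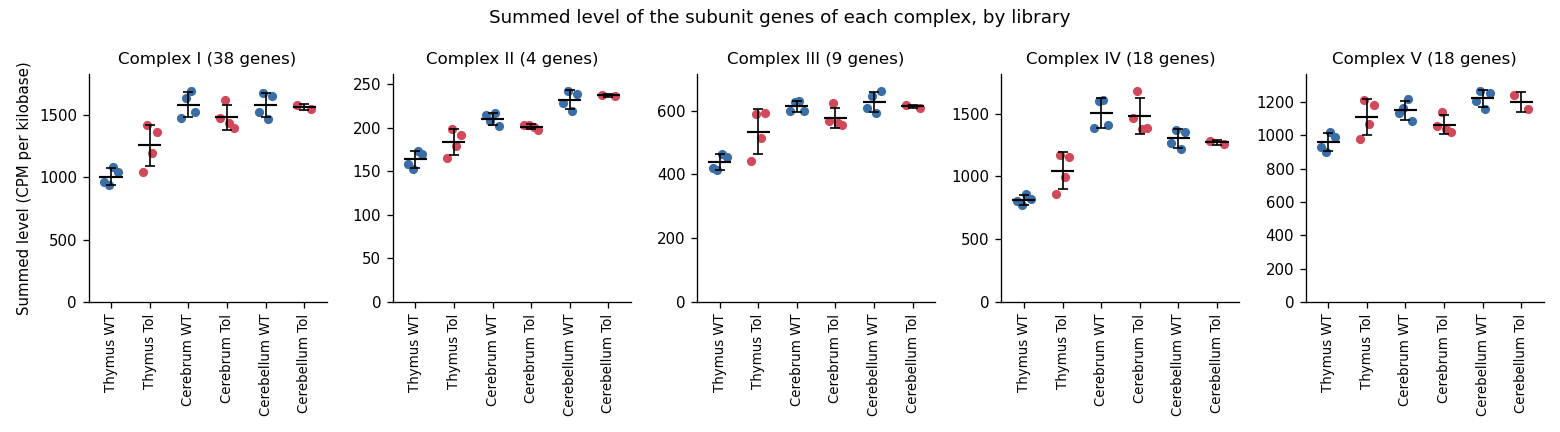
Summed level of the subunit genes of each complex in CPM per kilobase of merged exon (vertical axis, from 0), by organ and genotype. Points are single libraries (WT blue, Tol red), and bars give the mean with its SD; complex I in WT has a mean of 1008 in thymus and 1585 in cerebrum, and the 4 Tol thymi spread from 1046 to 1419.

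Within a complex, levels per length spanned a wide range in WT cerebrum. Complex II ran from 95.9 CPM per kilobase for Sdha to 20.9 for Sdhc, and complex III from 99.6 for Uqcr11 to 33.1 for Uqcrq. Complex V ran from 238 ± 17.0 for Atp5b, the catalytic beta subunit, to 4.33 for Atp5l, the g subunit, which shares much of its sequence with copies described further on. Complex IV ran from 381.5 ± 47.0 for Cox8a to 0 for Cox8c. These ranges rest on the length of merged exons, and the genes at their ends may change with another length. The merged exons of Atp5l span 6443 bases against a mean transcript length of 544. For Uqcrq these lengths are 1831 and 810 bases, for Uqcr11 641 and 445, and for Uqcrh 1237 and 474.5.

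Gene by gene, most subunits were higher in WT cerebrum than in WT thymus. Of the 84 members tested (edgeR quasi-likelihood F test over the 12 WT libraries, Benjamini-Hochberg adjustment over all genes tested), 62 were called higher and 5 lower at an adjusted p under 0.05. Among all genes tested, 40.9% were called higher and 43.4% lower. In complex I, 32 of 38 were higher and none was lower, with a median log2 fold change of 0.68. Complex III had 8 of 9 higher with a median of 0.59, and complex IV 11 of 15 higher and 2 lower with a median of 0.68. Complex II had 2 of 4 higher and 1 lower, and complex V 9 of 18 higher and 2 lower, both with a median of 0.15. The median of all 84 was 0.57, against -0.06 for all genes tested.

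These counts moved with the scaling between organs. With upper-quartile factors the median of the members was 0.38 and that of all genes -0.25. With total counts alone the medians were 0.16 and -0.47, and 38 members were then called higher and 23 lower, against 33.4% and 52.4% of all genes. Members are short, 60 of the 84 having a mean transcript length under 1000 bases, and 2373 other genes of that length had a median of -0.71. With each library's trend on length and GC content removed, 77 members were called higher and 2 lower (41.7% and 43.4% of all genes), and the median was 1.14.

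Within complex I, Ndufb9, an accessory subunit of the membrane arm, had the largest called difference. Its level in WT thymus was 38.0, 36.6, 40.5 and 38.0 CPM per kilobase, and in WT cerebrum 91.2, 109.7, 113 and 99.3. The groups lay far apart, with a log2 fold change of 1.41 ± 0.082 (SE; adjusted p = 3.42e-09). Ndufs6, a subunit of the peripheral arm, had the smallest called difference, 0.22 ± 0.10 (adjusted p = 0.0496), and it was -0.20 with total counts alone. Ndufa4 had the highest level of the Nduf genes in WT cerebrum, 114 ± 11.03 CPM per kilobase (SD, n = 4) against 53.6 ± 3.59 in thymus, and it was 1.07 ± 0.085 higher on the log2 scale (adjusted p = 7.62e-08). Its relative Ndufa4l2, known to respond to hypoxia, was the lowest of them at 1.87 ± 0.348, with a log2 difference from thymus of 0.82 ± 0.24 (adjusted p = 0.00747).

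Complex II, succinate dehydrogenase, was uneven. Sdha, the flavoprotein that oxidizes succinate, measured 47.4, 46.3, 51.9 and 51.8 CPM per kilobase in WT thymus and 104, 92.1, 95.5 and 91.7 in WT cerebrum. The difference was 0.93 ± 0.074 on the log2 scale (adjusted p = 7.44e-08). Sdhd, a membrane anchor, went the other way: 59.9, 57.2, 64.9 and 62.4 in thymus against 51.8, 54.7, 56.9 and 51.9 in cerebrum, a log2 fold change of -0.21 ± 0.068 (adjusted p = 0.0129). The groups of Sdhd nearly met, and its value was 0.01 once the length trend was removed. Sdhb, the iron-sulfur subunit, was 0.17 ± 0.067 higher (adjusted p = 0.0307) and Sdhc, the other anchor, did not pass the test (0.13 ± 0.072, adjusted p = 0.115). Both were negative with upper-quartile factors and with total counts alone.

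In complex III, Uqcr11, a small accessory subunit, had the largest difference, 1.07 ± 0.075 (adjusted p = 2.2e-08). Cyc1 measured 31.3, 32.0, 34.7 and 32.9 CPM per kilobase in thymus and 48.8, 50.3, 51.4 and 49.9 in cerebrum, and was 0.59 ± 0.061 higher on the log2 scale (adjusted p = 9.87e-07). The Rieske protein gene Uqcrfs1 had the smallest called difference, 0.28 ± 0.084 (adjusted p = 0.00818), which was -0.14 with total counts alone. In complex V, Atp5s, a coupling factor, had the largest difference, 1.62 ± 0.12 (adjusted p = 3.79e-08), and Atp5g2, a subunit c gene, the lowest, -0.68 ± 0.084 (adjusted p = 6.33e-06).

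Against WT thymus, WT cerebellum gave counts near those of cerebrum: 63 of 84 members were called higher and 4 lower (41.7% and 41.8% among all genes), with a median of 0.54. Both contrasts share the 4 WT thymi. Without cerebellum WT 2 they were 61 and 5 (41.1% and 42.1%), and of the 25 members named for this contrast only Atp5g3 lost its call, from an adjusted p of 0.0383 to 0.0713 (edgeR). Complex I had 32 of 38 higher, complex II 2 of 4, complex III 8 of 9, complex IV 11 of 15 and complex V 10 of 18. Ndufb2, a membrane-arm subunit, had the largest difference of complex I: 3.36, 3.51, 3.66 and 3.43 CPM per kilobase in thymus and 10.01, 11.1, 10.7 and 11.8 in cerebellum. Its log2 fold change was 1.61 ± 0.071 (adjusted p = 2.33e-10), and the smallest called was that of Ndufv3 (0.20 ± 0.058, adjusted p = 0.00577), which was -0.06 with total counts alone. Sdha was again the highest of complex II (1.12 ± 0.074, adjusted p = 1.29e-08), Cyc1 led complex III (0.84 ± 0.061, adjusted p = 3.01e-08) and Atp5s complex V (1.51 ± 0.12, adjusted p = 7.84e-08).

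Between the brain regions, 14 of 84 members were called higher and 12 lower in WT cerebellum than in WT cerebrum, against 26.4% and 24.6% of all genes, with a median of 0.03. With total counts alone 36 were higher and 5 lower (36.2% and 18.6% of all genes). Without cerebellum WT 2, 11 were higher and 15 lower (27.2% and 25.9%), and of the 26 members named for this contrast Cox4i2 (adjusted p = 0.0363) and Atp5g2 (adjusted p = 0.0411) gained a call and none lost one. In complex I, Ndufb2 was 0.46 ± 0.069 higher (adjusted p = 0.00015) and Ndufb9 had -0.51 ± 0.08 (adjusted p = 0.000222). In complex II, Sdhc was 0.30 ± 0.071 higher (adjusted p = 0.00361) and Sdhb had -0.21 ± 0.067 (adjusted p = 0.0191). In complex III, Cyc1 was 0.25 ± 0.06 higher (adjusted p = 0.00405), while Uqcr11 had -0.31 ± 0.074 (adjusted p = 0.00436). In complex V, Atp5b was 0.25 ± 0.072 higher (adjusted p = 0.0124), and Atp5d, which encodes the delta subunit of the central stalk, had -0.30 ± 0.057 (adjusted p = 0.000808).

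**Figure D2:**
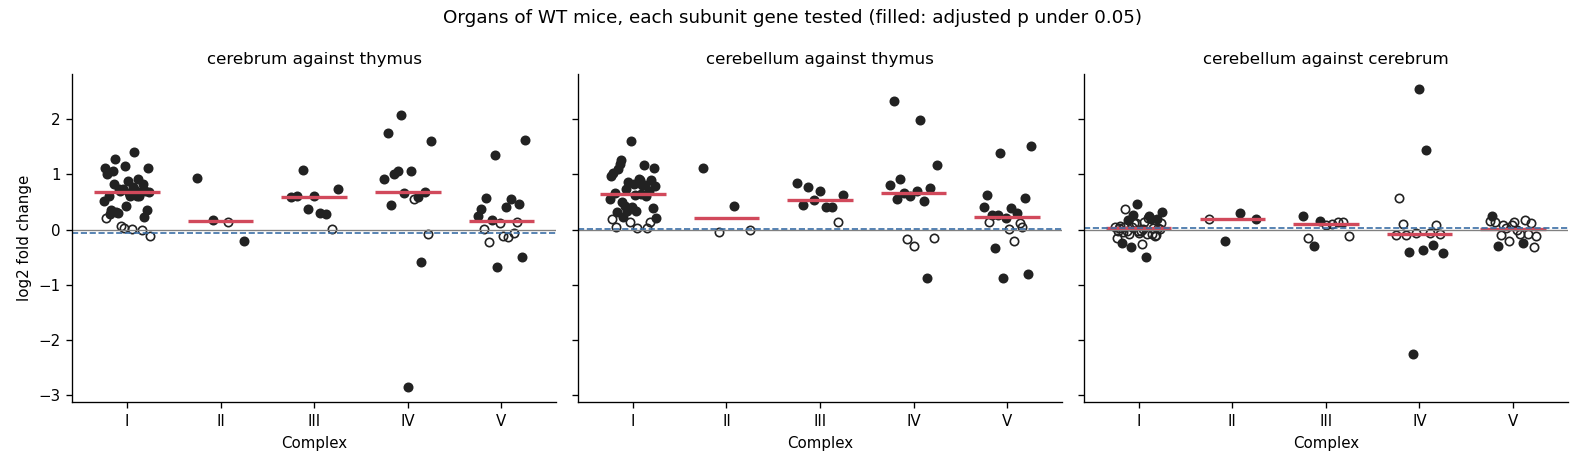
log2 fold change of each member tested (vertical axis) by complex (horizontal axis) for 3 contrasts of WT organs; filled points have an adjusted p under 0.05, red bars are the median of the complex and the dashed blue line is the median of all genes tested. Complexes I, III and IV centre between 0.54 and 0.68 against thymus, complex V at 0.15 and 0.23, and the point farthest from 0 belongs to complex IV in each contrast.

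The same contrasts in Tol mice used other libraries. Tol cerebrum against Tol thymus had 38 members called higher and 19 lower of 85 tested, against 39.4% and 42.5% of all genes. Tol cerebellum against Tol thymus had 34 higher and 9 lower (37.5% and 39.2%), and Tol cerebellum against Tol cerebrum 7 higher and 1 lower (12% and 11.4%). Without the library labelled cerebellum Tol 2, these were 34 higher and 4 lower (34.7% and 37.4%), and 10 higher and 1 lower (18.4% in each direction).

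For cerebrum against thymus, 43 members were called in the same direction in both genotypes, 38 higher and 5 lower, out of 67 called in WT and 56 in Tol among the 84 tested in both. Of all genes tested in both, 38.3% were called higher in both and 39.9% lower in both. Ndufa2, a peripheral-arm subunit of complex I, was called in opposite directions, as were 0.0403% of all genes, with 0.28 ± 0.088 in WT (adjusted p = 0.0107) and -0.37 ± 0.13 in Tol (adjusted p = 0.0246). For cerebellum against thymus 34 were higher and 3 lower in both (36.9% and 37.3% of all genes), out of 67 in WT and 43 in Tol. Without the library labelled cerebellum Tol 2 the members were 33 and 3 (35.8% and 36.1%), out of 37 in Tol. For cerebellum against cerebrum 4 were higher and 1 lower in both (11.1% and 10.9%), out of 26 in WT and 7 in Tol. Without that library 8 and 1 were (17.1% and 16.3%), out of 11 in Tol.

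The widest differences of complex IV came from isoforms. Cox6a1, the widely found form of subunit VIa, measured 125, 124, 132 and 123 CPM per kilobase in WT thymus and 234, 285, 308 and 246 in WT cerebrum. It was 1.06 ± 0.082 higher in cerebrum on the log2 scale (adjusted p = 5.99e-08) and 0.66 ± 0.082 higher in cerebellum (adjusted p = 6.78e-06). Cox6a2, the heart and muscle form, measured 2.83, 2.63, 0.913 and 1.80 in WT thymus, 8.21, 10.6, 9.36 and 7.05 in WT cerebrum, and 3.02, 0.897, 1.93 and 1.54 in WT cerebellum. All 4 cerebra lay above all thymi and cerebella. Its log2 fold change was 2.08 ± 0.37 for cerebrum against thymus (adjusted p = 0.000172) and -2.25 ± 0.37 for cerebellum against cerebrum (adjusted p = 0.000306). It made up 3.18% ± 0.375 (SD, n = 4) of the pair in WT cerebrum.

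Cox6b2, the testis form of subunit VIb, had the reverse pattern. It measured 4.71, 4.42, 3.92 and 4.56 CPM per kilobase in WT thymus, 1.03, 0.522, 0.379 and 0.487 in WT cerebrum, and 2.69, 3.15, 4.04 and 4.69 in WT cerebellum. Cerebrum stood below both other organs without overlap, on 7 to 21 counts a library. The log2 fold change was -2.87 ± 0.29 against thymus (adjusted p = 8.13e-07), and cerebellum was 2.56 ± 0.29 above cerebrum (adjusted p = 1.44e-05). Its partner Cox6b1 was 0.67 ± 0.062 higher in cerebrum than in thymus (adjusted p = 3.77e-07).

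In the Cox7a family the order of the main forms differed between thymus and brain. Cox7a2, the liver form of subunit VIIa, measured 62.8, 58.2, 68.4 and 68.0 CPM per kilobase in WT thymus and 92.6, 98.2, 108 and 92.4 in WT cerebrum. Cox7a2l, whose product is known as a factor that joins complexes III and IV in supercomplexes, measured 95.3, 93.7, 101 and 102 in thymus and 61.7, 67.8, 67.7 and 67.1 in cerebrum. Cox7a2l was above Cox7a2 in every WT thymus and below it in every WT cerebrum. Cox7a2 was 39.3% ± 0.885 of the family in WT thymus, 59.0% ± 1.58 in WT cerebrum and 61.6% ± 2.34 in WT cerebellum. On the log2 scale Cox7a2 was 0.58 ± 0.076 higher (adjusted p = 1.03e-05) and Cox7a2l had -0.59 ± 0.084 (adjusted p = 2.19e-05) for cerebrum against thymus. Cox7a1, the heart form, was highest in WT cerebellum, at 4.08, 4.24, 5.49 and 5.22 CPM per kilobase against 1.42, 2.77, 1.46 and 1.34 in WT cerebrum, a log2 difference of 1.44 ± 0.26 (adjusted p = 0.000549).

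Cox4i2, the lung form of subunit IV that responds to oxygen, rested on few counts, 5 to 10 a library in WT thymus and 32 to 48 in WT cerebellum. It was 1.75 ± 0.26 higher in WT cerebrum (adjusted p = 3.65e-05) and 2.32 ± 0.25 higher in WT cerebellum (adjusted p = 1.9e-06) than in WT thymus, and its common partner Cox4i1 was 0.92 ± 0.085 and 0.82 ± 0.085 higher (adjusted p = 3.44e-07 and 1.21e-06). Cox8a measured 339, 430.2, 413 and 344 CPM per kilobase in WT cerebrum against 122, 116, 135 and 119.7 in thymus, a log2 difference of 1.61 ± 0.10 (adjusted p = 5.28e-09). Cox7b, a small membrane subunit, was 0.68 ± 0.073 higher in cerebrum than in thymus (adjusted p = 1.56e-06). Cox8b, the heart and muscle form of Cox8a, had 0 to 3 counts in the cerebra, 3 to 23 in the cerebella and 3 to 23 in the thymi. Cox8c had 0 counts in all 22 libraries, where 3 counts would be 0.0863 to 0.206 CPM. Cox7b2, a testis form, reached 1 count in the thymi, 9 in the cerebra and 23 in the cerebella. The last 3 genes were left out of the WT organ tests by the filter on low counts.

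Markers of other tissues were read beside the heart and muscle forms. The 10 skeletal muscle genes listed, Pvalb among them, summed to 21.1 to 24.3 CPM in WT thymus and 39.2 to 79.6 in WT cerebrum. In WT cerebellum they summed to 283.6 to 393.9, while Myh2 and Myh4 were under 3 counts in every library. The 7 heart genes, Ryr2 among them, summed to 4.97 to 8.30 CPM in WT thymus and 209.9 to 334.4 in WT cerebrum. Their sum was 212.6 to 316.8 in WT cerebellum, and Actc1 and Myl7 were under 3 counts in every WT brain library. The 8 pericyte and smooth muscle genes summed to 184 to 249.4 CPM in WT cerebrum and 236.3 to 320.4 in WT cerebellum. A sum does not show which of its genes carried it, so these sums do not show that muscle or heart cells were present. The part of muscle, heart or pericyte cells in the isoform differences was not tested.

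**Figure D3:**
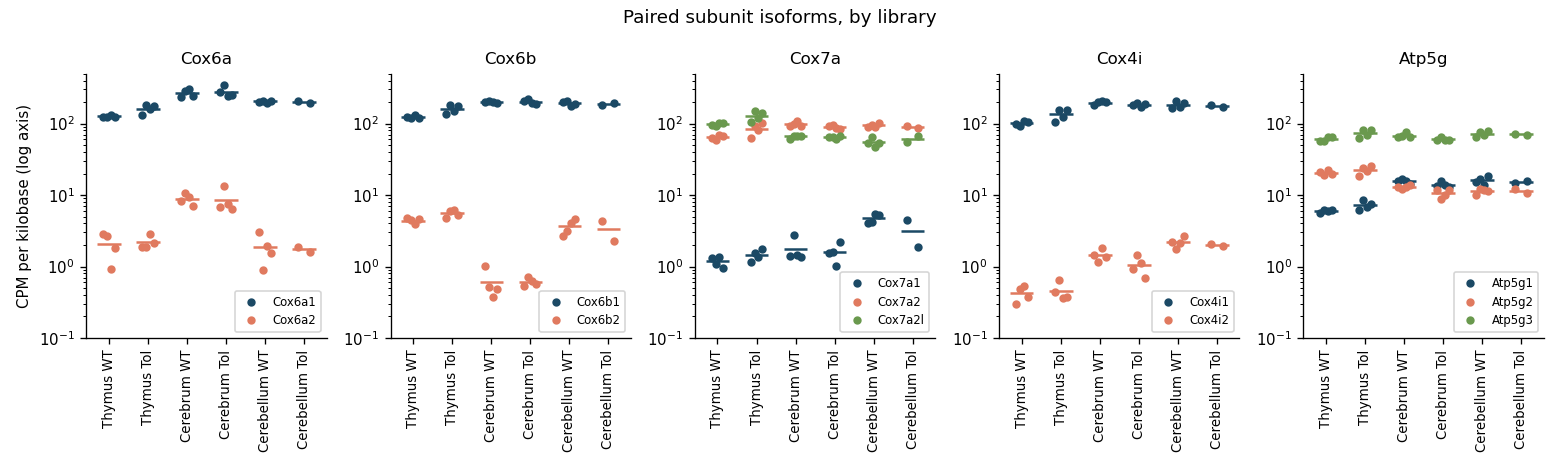
Level of 5 isoform families in CPM per kilobase (vertical log axis) in the 6 groups of libraries; points are libraries and lines group means. Cox7a2l lies above Cox7a2 in thymus and below it in the brain, Cox6a2 is highest in cerebrum, Cox6b2 is lowest in cerebrum, and Atp5g1 lies below Atp5g2 in thymus and above it in cerebrum, an order that did not hold with mean transcript length in place of merged exons.

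Subunit c of the ATP synthase, the ring that turns with the proton flow, is encoded by Atp5g1, Atp5g2 and Atp5g3. They are known to carry different import sequences in front of the same mature protein. Their coding ends are shown because reads from near-identical genes can be told apart only where the letters differ. Each is the last 225 bases before the stop codon (75 codons) in the GRCm38 transcripts, with capitals at the positions where the 3 genes are not all identical.
Atp5g1: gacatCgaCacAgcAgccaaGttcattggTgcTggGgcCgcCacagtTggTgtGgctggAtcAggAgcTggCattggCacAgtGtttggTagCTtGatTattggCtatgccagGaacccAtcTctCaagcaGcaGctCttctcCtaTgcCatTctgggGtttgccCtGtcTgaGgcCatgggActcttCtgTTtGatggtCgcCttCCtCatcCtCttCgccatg
Atp5g2: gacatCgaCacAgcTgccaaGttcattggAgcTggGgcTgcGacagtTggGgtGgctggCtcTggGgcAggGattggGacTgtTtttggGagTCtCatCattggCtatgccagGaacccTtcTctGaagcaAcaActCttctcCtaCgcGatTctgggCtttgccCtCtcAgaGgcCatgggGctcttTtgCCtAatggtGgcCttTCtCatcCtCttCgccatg
Atp5g3: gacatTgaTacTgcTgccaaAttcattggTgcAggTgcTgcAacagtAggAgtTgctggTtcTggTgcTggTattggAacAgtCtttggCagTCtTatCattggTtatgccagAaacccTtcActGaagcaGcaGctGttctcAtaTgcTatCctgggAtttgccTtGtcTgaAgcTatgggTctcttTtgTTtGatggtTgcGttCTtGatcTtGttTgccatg
Of the 225 positions, 57 differ among the 3 genes, and 52 of these are at the third position of a codon. Atp5g1 and Atp5g2 are identical at 191 positions, Atp5g1 and Atp5g3 at 180, and Atp5g2 and Atp5g3 at 177. The longest run identical between any pair is 20 bases, shorter than a read of 65 bases. Atp5g1 lies on chromosome 11 (96068852 to 96075670), Atp5g2 on chromosome 15 (102662864 to 102672352) and Atp5g3 on chromosome 2 (73908447 to 73911326), all on the minus strand of GRCm38.

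The subunit c genes moved apart between organs. Atp5g1 measured 5.53, 6.17, 5.95 and 6.17 CPM per kilobase in WT thymus and 15.6, 16.7, 15.6 and 14.3 in WT cerebrum, a log2 difference of 1.36 ± 0.09 (adjusted p = 1.24e-08). Atp5g2 measured 20.7, 19.1, 22.6 and 19.7 in thymus and 12.8, 12.2, 13.1 and 14.0 in cerebrum, with -0.68 ± 0.084 (adjusted p = 6.33e-06). Neither gene overlapped between these organs. Which of the pair is higher depended on the length used. With mean transcript length in place of merged exons, Atp5g1 was 4.39% and Atp5g2 21.4% of the family in WT thymus, 10.7% and 12.7% in WT cerebrum, and 10.6% and 10.7% in WT cerebellum, so Atp5g1 stayed below. Atp5g2 also shares reads with a copy, described next. Atp5g3 was the main gene in each organ, at 61.4 ± 4.42, 67.9 ± 5.42 and 72.4 ± 7.002 CPM per kilobase (SD, n = 4) in WT thymus, cerebrum and cerebellum. Its difference between cerebrum and thymus did not pass the test (0.12 ± 0.085, adjusted p = 0.195) and was negative with upper-quartile factors. In cerebellum Atp5g1 was 1.39 ± 0.09 above thymus (adjusted p = 9.9e-09) and Atp5g2 had -0.88 ± 0.084 (adjusted p = 5.15e-07).

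Near-identical copies elsewhere in the genome held many counts. Of the 87 members, 32 share at least 1 stretch of 65 bases, the read length, with another listed gene, and 15 share over 10% of such stretches. Gm10175, a transcribed processed pseudogene that shares 36.2% of the stretches of Atp5g2, had 65.5 to 72.8% of the counts of both genes together in the thymi, 62.9 to 78.2% in the cerebra and 66.2 to 74.6% in the cerebella. In the cerebella Ndufb4c held 79.5 to 83.9% of its sum with Ndufb4, Gm12338 79.3 to 85.9% of its sum with Cox7c, and Gm10221 67.2 to 71.6% of its sum with Atp5l. These 4 members, chosen after their values were seen, thus had fewer counts than a copy. How the counting divided shared reads among copies cannot be checked from the counts.

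The counts of 21 such copies were added to the 14 members they resemble, a setting chosen after seeing the data. For WT cerebrum against WT thymus 63 members were then called higher and 5 lower (40.9% and 43.4% of all genes). Atp5g2 kept its direction, with -0.65 ± 0.071 (adjusted p = 1.76e-06). Cox7c, a small subunit of complex IV, went from -0.075 on its own counts (adjusted p = 0.592) to 0.49 ± 0.075 with its copies (adjusted p = 4.8e-05). For cerebellum against thymus Atp5l went from 0.12 (adjusted p = 0.369) to 0.36 ± 0.063 (adjusted p = 0.000134).

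The promoters of members were read for the words of factors known to drive mitochondrial genes. RefSeq (GRCm38.p6) gave 72 promoters for 67 member genes, each of 300 bases, from 250 before to 50 after the start. On either strand, the NRF1 core, a palindrome written as GCGC, AT and GCGC without gaps, was in 6.94% of member promoters, 1.38% of those of protein-coding genes and 0.971% of all promoters. With 1 free base in place of the A, a word that contains the former, the shares were 25%, 6.62% and 4.60%. The ETS word CCGGAAG was in 22.2%, 11.9% and 8.86%, the YY1 word AAGATGGC in 12.5%, 3.11% and 2.75%, and the ERR word TCAAGGTCA in 2.78%, 0.324% and 0.423%. The NRF1 core and the ERR word rest on few member promoters, 5 and 2 of the 72. A match is a string of letters and not a site.

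Promoters are shown for the pair of subunit c genes that differed in direction and for Cox6a1, which holds both an NRF1 and an ETS word. Each is the 250 bases before the start of a gene on the minus strand, in GRCm38.p6, written 5′ to 3′ along the gene, with the words above in capitals.
Atp5g1 (chr11:96075632-96075881): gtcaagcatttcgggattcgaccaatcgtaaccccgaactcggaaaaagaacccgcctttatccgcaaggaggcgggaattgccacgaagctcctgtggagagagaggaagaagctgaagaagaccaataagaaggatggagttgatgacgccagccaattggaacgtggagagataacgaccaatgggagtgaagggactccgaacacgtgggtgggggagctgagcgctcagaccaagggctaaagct
Atp5g2 (chr15:102671048-102671297): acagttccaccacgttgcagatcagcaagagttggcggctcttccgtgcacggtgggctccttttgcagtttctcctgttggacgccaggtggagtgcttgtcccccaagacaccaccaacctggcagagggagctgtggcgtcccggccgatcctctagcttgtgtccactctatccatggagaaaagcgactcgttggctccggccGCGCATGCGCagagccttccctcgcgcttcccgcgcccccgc
Cox6a1 (chr5:115348959-115349208): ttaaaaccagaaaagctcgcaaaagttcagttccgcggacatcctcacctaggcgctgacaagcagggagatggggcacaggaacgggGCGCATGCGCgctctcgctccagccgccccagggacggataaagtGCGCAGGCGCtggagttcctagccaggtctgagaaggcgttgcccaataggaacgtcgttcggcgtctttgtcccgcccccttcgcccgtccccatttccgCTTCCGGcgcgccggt
The whole window of Atp5g1 holds none of the words searched.

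Other genes of the pathway were counted in the same tests. All 13 subunits encoded by mitochondrial DNA were higher in WT cerebrum than in WT thymus, with a median of 2.53, and all 13 in WT cerebellum, with a median of 1.99. The lowest p was that of mt-Nd2, a membrane subunit of complex I (2.91 ± 0.19, adjusted p = 9.03e-09, for cerebrum). Among all genes, 40.9% were called higher and 43.4% lower in cerebrum, and 41.7% and 41.8% in cerebellum. Assembly factors had 25 of 45 higher and 5 lower in cerebrum, led by Ttc19, a complex III factor (2.62 ± 0.093, adjusted p = 2.75e-11). Electron carriers and partners had 8 of 15 higher and 5 lower, led by Slc25a4, an ADP/ATP exchanger (1.99 ± 0.085, adjusted p = 1.63e-10). Regulators of mitochondrial biogenesis had 3 of 14 higher and 9 lower: Ppargc1a, a coactivator of the pathway, was 6.00 ± 0.17 higher (adjusted p = 3.5e-12), whereas Tfam, which packages mitochondrial DNA and was chosen after its values were seen, had -0.79 ± 0.081 (adjusted p = 9.84e-07). The citric acid cycle had 14 of 16 higher and 1 lower, led by Idh3a (1.84 ± 0.086, adjusted p = 3.72e-10), and glycolysis 15 of 17 higher and 2 lower, led by Aldoc, the brain aldolase (9.07 ± 0.13, adjusted p = 7.2e-14).

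The comparison of genotypes asked whether expression of these genes differed in mice that carry the Tol transgene. In the thymus, no member of 83 tested passed an adjusted p under 0.05 (edgeR), against 0.0554% of all genes called higher and 0.0431% lower. At an unadjusted p under 0.05, 58 members were higher in Tol and none lower, against 13.3% and 11.1% of all genes. All 83 log2 fold changes were above 0, compared with 51.4% of all genes, and 82 of 83 with upper-quartile factors. Their median was 0.31 against 0.01 for all genes. DESeq2 gave 80 members an adjusted p and called 36 higher, with 4.94% of all genes called higher. By complex, the unadjusted count was 30 of 38 for complex I, 2 of 4 for II, 5 of 9 for III, 11 of 14 for IV and 10 of 18 for V, with medians of 0.31, 0.19, 0.25, 0.33 and 0.26.

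**Figure D4:**
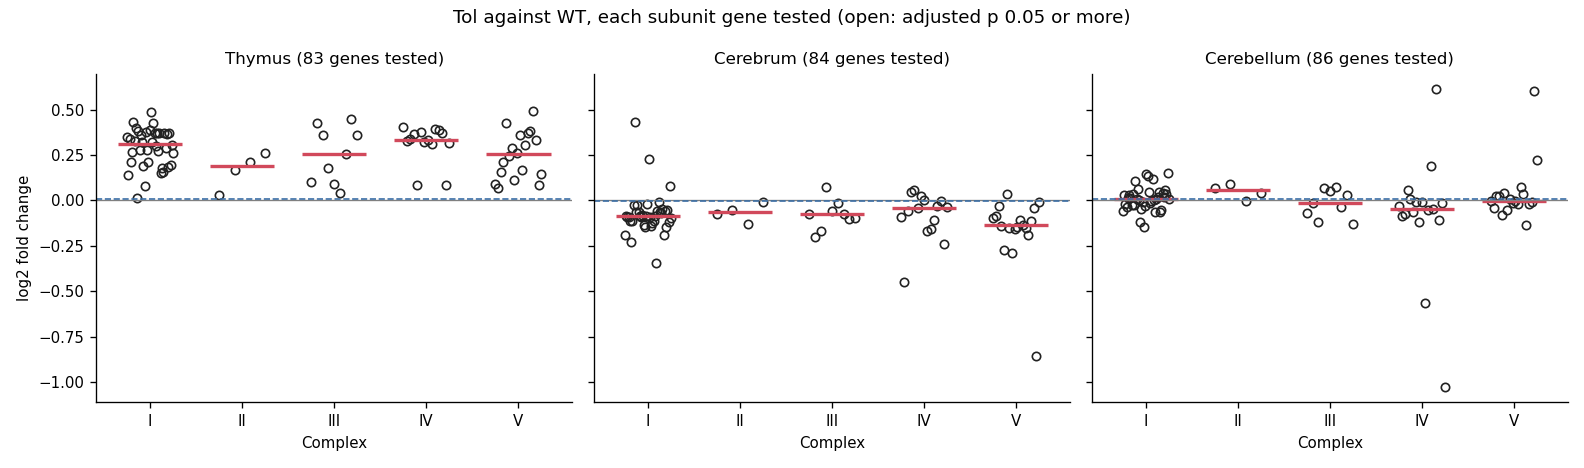
log2 fold change of Tol against WT (vertical axis) for each member tested in thymus, cerebrum and cerebellum, by complex; red bars are medians of a complex and the dashed blue line is the median of all genes. All points are open, since no member had an adjusted p under 0.05; in thymus every point lies above 0 and in cerebrum 75 of 84 lie below it.

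Cox5b, a zinc-binding subunit of complex IV, had the lowest p. It measured 87.4, 79.8, 88.2 and 83.0 CPM in WT 1 to 4 and 96.1, 117, 98.4 and 116 in Tol 1 to 4. Every Tol library lay above every WT library, with a log2 difference of 0.34 ± 0.076 (adjusted p = 0.0805). Uqcrh, the hinge protein of complex III, measured 139, 127, 152 and 145 in WT and 154, 218, 181 and 216 in Tol, also without overlap (0.45 ± 0.11, adjusted p = 0.0827). Ndufb10 of complex I measured 51.7, 45.1, 54.3 and 54.5 in WT and 57.0, 77.3, 64.7 and 68.9 in Tol (0.38 ± 0.094, adjusted p = 0.0841), again without overlap. Cox6b1 (0.38 ± 0.092, adjusted p = 0.0834), Ndufs4 (0.37 ± 0.093, adjusted p = 0.0841) and Cox6a1 (0.37 ± 0.092, adjusted p = 0.0849) followed. In Cox6a1 and Ndufs4 the library Tol 1 fell within the range of WT. Groups did not overlap in 11 of the 83 members, all with Tol above; among all genes 5.81% had every Tol library above every WT library and 5.95% below.

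The 4 Tol thymi were not alike. The median deviation of the members from the organ mean (log2) was -0.18, -0.23, -0.02 and -0.11 in WT 1 to 4, and -0.09, 0.34, 0.08 and 0.25 in Tol 1 to 4. Tol 1, the library with the most counts, lay within the WT range, and the other 3 above it. Without Tol 1, 62 members were called higher, with 9.71% of all genes. Without Tol 1 and WT 4, the deepest library of each genotype, 54 were, with 6.06% of all genes.

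Transcript length moved along with these values. The tested members have a median length of 718.5 bases against 2149.3 for all genes. Over all genes, the rank correlation of a library's deviation with length was 0.31, 0.30, 0.07 and 0.23 in WT 1 to 4 and 0.24, -0.39, -0.27 and -0.39 in Tol 1 to 4. The 2371 other genes under 1000 bases had a median log2 difference of 0.17. With the length and GC trend of each library removed, 0 members were called (0.265% of all genes higher), 44 were higher at an unadjusted p under 0.05 (11.3% of all genes), 72 of 83 were above 0 and the median was 0.15.

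**Figure D5:**
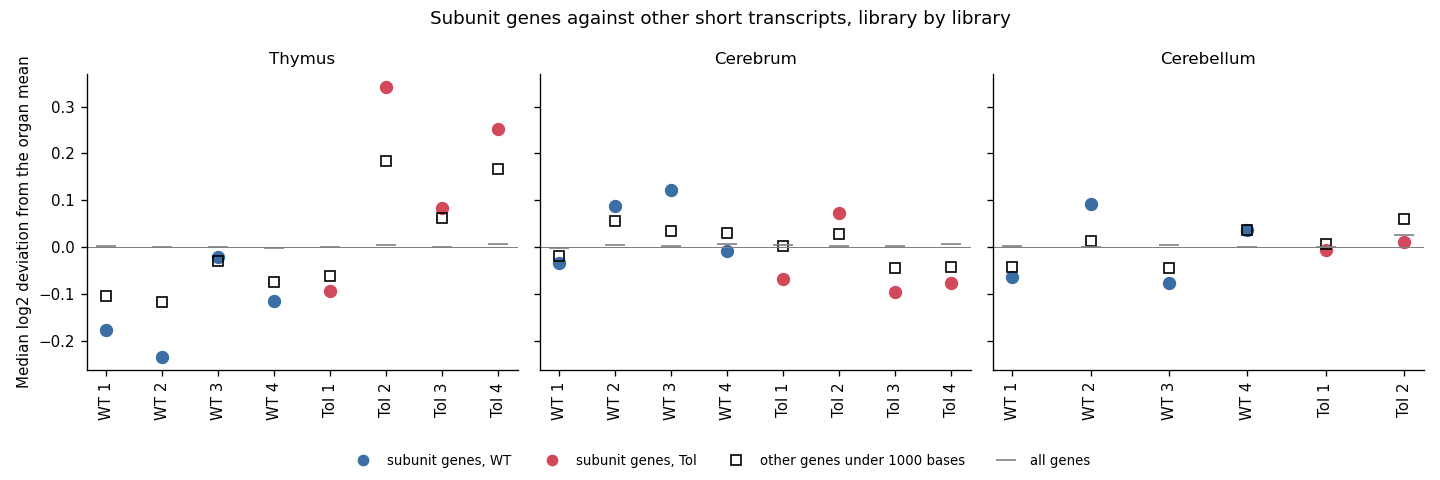
Median log2 deviation from the organ's mean (vertical axis) in each library, for the members (circles, WT blue, Tol red), for other genes with a mean transcript length under 1000 bases (squares) and for all genes (dashes). In thymus, the members of Tol 2, 3 and 4 stand at 0.34, 0.08 and 0.25 and those of Tol 1 at -0.09, and the other short genes lie on the same side of 0 in each thymus library, nearer to 0 in all but WT 3.

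In the other pathway lists in the thymus no gene was called, and their counts at an unadjusted p under 0.05 stand beside 13.3% of all genes higher and 11.1% lower. Of 45 assembly factors, 17 were higher and none lower at an unadjusted p under 0.05, with a median of 0.16, and the lowest p was that of Lyrm7, a complex III factor (0.83 ± 0.14, adjusted p = 0.0548). Of the 13 mitochondrially encoded subunits 2 were higher and 1 lower, with a median of -0.06, and mt-Co2 had the lowest p (0.54 ± 0.12, adjusted p = 0.0733). The citric acid cycle had 2 of 16 higher and glycolysis 2 of 17, with medians of 0.07 and 0.01, and the biogenesis regulators 1 of 14 higher and 3 lower, with a median of -0.05. The electron carriers and partners had 7 of 15 higher and none lower, with a median of 0.16.

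Markers of other cells in the thymus were read beside these values. The 10 skeletal muscle genes summed to 21.1, 22.1, 24.3 and 23.7 CPM in WT and 26.0, 27.4, 26.6 and 29.8 in Tol, where every Tol library lay above every WT library, and of the 6 tested 1 was higher at an unadjusted p under 0.05. The 10 thymocyte genes summed to 12310 to 13680 in WT and 10210 to 12750 in Tol, with 1 higher and 1 lower. The 7 heart genes summed to 4.97 to 8.30 and 5.56 to 8.71. The 8 B cell genes summed to 791.9 to 1240 CPM in WT and 712.2 to 884.5 in Tol, with 3 lower. In the same order, the 6 brown fat genes summed to 4.04 to 4.91 and 4.64 to 11.1, the 6 white fat genes to 53.1 to 190.2 and 24.6 to 147.7, and the 8 proliferation genes to 2651 to 3741 and 2886 to 4017. The part of these cells in the values of the members was not tested.

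In the cerebrum most members lay on the other side of 0 and nearer to it. Of 84 tested, none was called by edgeR, nor was any of the 15596 genes tested (0%), and DESeq2 called no member (0.549% and 0.783% of all genes). At an unadjusted p under 0.05, 1 was higher and 10 lower, against 4.81% and 4.85% of all genes. The median was -0.09, and 9 of 84 were above 0, compared with 48.6% of all genes. The rank correlation of the log2 fold change with transcript length was 0.15 over all genes and 0.25 over the members. The 1778 other genes under 1000 bases had a median of -0.04. Ndufc1, a small membrane subunit of complex I, had the lowest p: 19.7, 23.6, 25.3 and 21.2 CPM in WT and 18.2, 20.2, 15.4 and 16.9 in Tol, with the groups overlapping at Tol 2 (-0.34 ± 0.11, adjusted p = 0.362). Atp5h, the d subunit of the ATP synthase stalk, measured 106, 108, 109.7 and 105 in WT and 95.7, 101, 94.2 and 96.5 in Tol, all lower (-0.14 ± 0.049, adjusted p = 0.383). Ndufb11 (-0.15 ± 0.055, adjusted p = 0.437), Atp5e (-0.28 ± 0.10, adjusted p = 0.422) and Atp5g2 (-0.29 ± 0.10, adjusted p = 0.414) were among the 6 members of lowest p, and with its copy added Atp5g2 had -0.066 ± 0.069. Groups did not overlap in 4 members, all with Tol below, against 3.12% of all genes below and 3.38% above.

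The entry of Atp5o with the identifier ENSMUSG00000116933 shares 86.3% of its 65-base stretches with other genes, most with the overlapping Donson. It had 32 to 100 counts in the cerebra, and its log2 difference was -0.86 ± 0.29 in cerebrum (adjusted p = 0.38) and 0.60 ± 0.21 in cerebellum (adjusted p = 0.957), or 0.68 ± 0.28 without the library labelled cerebellum Tol 2. The main Atp5o entry, ENSMUSG00000022956, measured 108, 108, 108 and 102 CPM in WT cerebra and 102, 112, 99.8 and 99.2 in Tol cerebra, where the groups overlapped.

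In the cerebellum, with 2 Tol libraries of which Tol 2 has little of the cerebellar markers, no member of 86 was called by edgeR (0% of all genes) or DESeq2, 1 was higher and none lower at an unadjusted p under 0.05 (1.94% and 1.22%), and the median was -0.004. Above 0 were 41 of 86, compared with 51.8% of all genes, and groups did not overlap in 1 member with Tol above and 1 below (6.19% and 4.59% of all genes). Cox7a1 measured 2.07, 2.19, 2.84 and 2.65 CPM in WT and 2.30 and 0.997 in Tol, where Tol 1 was within and Tol 2 below the WT range (-0.56 ± 0.38, adjusted p = 0.957). Ndufb2 (-0.15 ± 0.10), Uqcrq (-0.13 ± 0.10), Cox7a2l (0.19 ± 0.16) and Ndufv2 (0.15 ± 0.14) were also among the members of lowest p, each with an adjusted p of 0.957. The skeletal muscle genes, Pvalb among them, summed to 444 CPM in Tol 1 and 118.5 in Tol 2, against 283.6 to 393.9 in WT. The granule and Purkinje cell genes summed to 12600 and 770.9 in the same 2 libraries. The part of muscle or of cerebellar cells in the value of Cox7a1 was not tested. Without the library labelled cerebellum Tol 2, no member was called (edgeR), 1 was higher and none lower at an unadjusted p under 0.05 (0.919% and 1.14% of all genes), and the median was -0.015. Cox7a1 was then -0.090 ± 0.32 (adjusted p = 0.985), Cox7a2l 0.028 ± 0.18 (adjusted p = 0.991) and Ndufv2 -0.027 ± 0.15 (adjusted p = 0.990), while without Tol 1 Cox7a1 was -1.29. The number of Tol libraries limits the precision here, and 1 of them goes against its label. With that library, a genotype difference cannot be told apart from a difference in tissue content. Without it, the Tol group has no replicate.

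mt-Nd3, a mitochondrially encoded subunit of complex I, had the lowest p of its list in both brain regions. In cerebellum it measured 1253, 696, 387 and 499 CPM in WT and 204 and 216 in Tol (-1.75 ± 0.51, adjusted p = 0.957), and in cerebrum 1112, 762, 578 and 699.6 in WT and 250.4, 339.5, 201 and 835 in Tol (-0.96 ± 0.42, adjusted p = 0.517). Without the library labelled cerebellum Tol 2, mt-Nd3 was -1.80 ± 0.72 in cerebellum (adjusted p = 0.979). The cerebellar groups did not overlap, while in cerebrum Tol 4 lay within the WT range. Pprc1, a coactivator of the PGC-1 family, had the lowest p of the biogenesis regulators in both, -0.50 ± 0.10 in cerebrum (adjusted p = 0.207) and -0.48 ± 0.12 in cerebellum (adjusted p = 0.957), or -0.43 ± 0.16 there without that library.

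The difference of the genotype effects, cerebrum minus thymus, was tested over the 16 libraries of these organs. No member of 84 was called (edgeR; 0.0394% of all genes called higher and 0.0675% lower), 61 were lower and none higher at an unadjusted p under 0.05 (9.81% and 6.64% of all genes), and the median was -0.40, with 1 of 84 above 0 (48.5% of all genes). DESeq2 called 12 lower (2.08% of all genes). Ndufb10 had the lowest p (-0.52 ± 0.11, adjusted p = 0.0806), followed by Uqcr10 of complex III (-0.64 ± 0.14, adjusted p = 0.0822) and Ndufa2 (-0.67 ± 0.16, adjusted p = 0.0979). Ndufa2 measured 32.2, 30.9, 35.2 and 36.7 CPM in WT thymi and 35.7, 54.4, 43.3 and 49.8 in Tol thymi. In the cerebra it measured 27.5, 30.9, 32.7 and 31.9 in WT and 25.6, 29.7, 25.3 and 24.1 in Tol. Without thymus Tol 1, 46 members were called lower (3.42% of all genes). Without the deepest thymus library of each genotype 33 were, with 2.11% of all genes. With the length and GC trend removed, 0 were called (0.0788% of all genes lower), 40 were lower at an unadjusted p under 0.05 (7.62% of all genes), and the median was -0.21.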

How the data were processed

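Poly(A) RNA of 22 frozen organ samples was read as single-end reads of 65 bases. The authors estimated counts per gene with Salmon 0.14.1 against GRCm38, and deposited expected counts as whole numbers in 3 tables, 1 an organ. Groups followed the labels. The members and gene lists were chosen with earlier results of these data known.

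Tests used edgeR 4.0.16 in R 4.3.3 (TMM, filterByExpr, quasi-likelihood F test, Benjamini-Hochberg adjustment over all genes, called under 0.05), and DESeq2 1.42.0 as an alternative. The edgeR test was checked on simulated counts with 200 changed genes and no length trend. Those changes were larger than the medians of the members between genotypes, so the check does not cover differences of that size. Each organ was fitted alone for Tol against WT, the 12 WT libraries for organ contrasts, and the 10 Tol libraries likewise. Whether counting used strand is not given in the sources used here. Exons of 6 members overlap another gene on the same strand and 27 on the opposite strand. P-values set a difference against a spread estimated over the libraries of a fit, and the limit of 3 counts covers counting error only. No 2 libraries agreed within sampling noise.

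Members were named by fixed rules: the 6 of lowest p for Tol against WT in each organ, 3 for the difference of effects, the highest and lowest called per complex in each WT contrast, complex II, Cyc1, isoform families, level extremes per complex, and the lowest p of each other list. Alternatives were other scalings, no filter, one fit of all libraries, a replicate block, removal of length and GC trends, and leaving out each library. Chosen after seeing the data were leaving out the deepest thymus libraries or thymus WT 4 with cerebrum WT 3, leaving out single Tol libraries in the Tol contrasts, and adding the counts of near-identical copies.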

Additional observations from a re-analysis of the deposited data

How the results depend on the processing

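In the thymus, Tol against WT kept a positive median under each alternative run, and the number of members called higher was 36 with DESeq2, 54 without the deepest thymus library of each genotype, and 0 to 62 on leaving out 1 library, the 62 without Tol 1; the median with the length and GC trend removed was 0.15. For the difference of effects the members called lower were 12 with DESeq2, 33 without those deepest libraries and 0 to 46 on leaving out 1 library (46 without thymus Tol 1), and the median without the length trend was -0.21. The cause of these differences was not tested. In cerebrum and cerebellum 0 members were called under every alternative run.

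For WT cerebrum against WT thymus, total counts alone gave 38 members higher and 23 lower (33.4% and 52.4% of all genes) and a median of 0.16. Upper-quartile factors gave 13 lower and a median of 0.38, and one fit of all 22 libraries 3 lower. Removal of the length trend gave 2 lower (43.4% of all genes) and a median of 1.14. For WT cerebellum against WT thymus, upper-quartile factors gave 8 lower and 0.39, total counts 12 lower and 0.28, and the length trend 1.15. For WT cerebellum against WT cerebrum, the members higher were 9 with DESeq2 size factors, 9 with DESeq2, 36 with total counts, 7 without the filter and 8 to 14 on leaving out 1 library (8 without thymus WT 4, cerebrum WT 4 or cerebellum WT 4; 9 without thymus WT 1, thymus WT 2, cerebrum WT 1 or cerebellum WT 3), while total counts gave 5 lower and a median of 0.18. In Tol mice, leaving out 1 library gave 3 to 13 lower for cerebellum against thymus (3 without thymus Tol 2, 4 without thymus Tol 4 or cerebellum Tol 2), and 2 to 10 higher and 1 to 2 lower for cerebellum against cerebrum (2 higher without cerebrum Tol 1, 3 or 4 or cerebellum Tol 1, 4 without cerebrum Tol 2, and 2 lower without cerebrum Tol 4). Where no share of all genes is given for a setting, its count cannot tell a shift of the members from a shift of all genes. With total counts alone the mean log2 level of WT cerebrum minus WT thymus was 0.19, -0.15, 0.094, 0.14 and -0.18 for complexes I to V.

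Single genes changed sign as follows. With total counts, cerebrum against thymus gave -0.20 for Ndufs6, -0.14 for Uqcrfs1, -0.24 for Sdhb, -0.29 for Sdhc and -0.29 for Atp5g3, cerebellum against thymus -0.063 for Ndufv3 and -0.057 for Atp5g3, and cerebellum against cerebrum 0.045 for Cox4i1, 0.079 for Cox6b1 and 0.097 for Cox7a2. With upper-quartile factors, cerebrum against thymus gave -0.017 for Sdhb, -0.062 for Sdhc and -0.067 for Atp5g3. Without the length trend, Sdhd was 0.014 in cerebrum against thymus, and in cerebellum against thymus Sdhb was 0.20, Sdhd 0.22, Cox6a2 0.52 and Cox6b2 0.89, while Cox7a2 was 0.0023 in cerebellum against cerebrum. One fit of all libraries gave 0.025 for Sdhd. In cerebellum against cerebrum, Ndufa4 was -0.00161 with DESeq2 size factors and -0.00538 with DESeq2, and Atp5g1 -0.00540 and -0.00927. On leaving out 1 library, Ndufv2 ran from -0.027 to 0.30 (Tol against WT, cerebellum), Sdhd from -0.074 to 0.025 and Cox6a2 from -0.51 to 0.057 (cerebellum against thymus), and Ndufa4 from -0.012 to 0.082 and Atp5g1 from -0.037 to 0.070 (cerebellum against cerebrum).

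Same-numbered libraries did not deviate together in every pair, with correlations from -0.298 to 0.619 for Tol and WT of 1 organ and from -0.00774 to 0.111 for WT of 2 organs, where 11 of 12 were above 0. The study's count of mice leaves room for organs from the same animals. The labels do not say whether a number marks 1 mouse across organs, and these values do not settle it. With the replicate block the thymus had 0 members called and a median of 0.30, the WT contrasts 61 higher and 6 lower, 63 and 5, and 11 and 12, and no count moved by over 1.5 times. Shares of all genes with the block are not given here, so these counts show only that the calls of members changed little. Depth limits Cox8c in every organ, Cox7b2 in thymus and cerebrum, and Cox8b in cerebrum, where libraries lie under the limit of 3 counts.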

Other observations

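Of the other pathway genes, 11 of 17 glycolysis genes were lower and 3 higher in WT cerebellum than in WT cerebrum, with a median log2 fold change of -0.33, and Ldha, which makes lactate, had the lowest p (-1.24 ± 0.10, adjusted p = 1.12e-06, edgeR). The biogenesis regulators had 5 of 14 higher and none lower, led by Gabpa, an ETS factor (0.56 ± 0.067, adjusted p = 2.54e-05). Of the 13 mitochondrially encoded subunits 6 were lower and none higher, with a median of -0.43. Assembly factors had 5 of 45 higher and 13 lower, led by Ttc19 (-0.84 ± 0.087, adjusted p = 8.03e-06). The citric acid cycle had 4 of 16 higher and 1 lower. Among all genes 26.4% were called higher and 24.6% lower in this contrast. Without cerebellum WT 2, whose granule and Purkinje markers were the lowest of the WT cerebella, glycolysis had 3 higher and 11 lower, the regulators 6 and 0, the mitochondrially encoded subunits 0 and 6, assembly factors 5 and 12, and the citric acid cycle 4 and 2 (27.2% and 25.9% of all genes).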
